A study of Mus musculus with 10 samples.

Results

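Heat shock proteins and chaperones are described here in medullary thymic epithelial cells (mTECs) with and without the transcription factor Fezf2. The genes were taken by symbol from the platform annotation of the arrays. They are the HSP70, HSP90, HSP60, HSP10 and small heat shock protein genes (symbols starting with Hsp), the J-protein genes (Dnaja, Dnajb, Dnajc), the subunits of the CCT chaperonin, the BAG co-chaperones Bag1 to Bag6, the crystallins Cryaa and Cryab, the heat shock factor Hsf2, and Hyou1. The Hsp symbols also brought in Hspbp1 and Hspbap1, which were placed in none of these families. Hspb11 was counted with the small heat shock proteins by its symbol alone. The rule found 91 genes, carried by 218 probe sets, among 18194 genes with a probe set of their own on the arrays. Hsp90ab1 and Hsf1 were not analysed here.

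The arrays were Affymetrix arrays of total RNA from thymus cells of C57BL/6 mice aged 3 weeks, sorted as CD45-, EpCAM+ and CD80hi, that is, as epithelial cells of the medulla with high levels of the costimulatory molecule CD80. There were 5 wild type (WT) arrays and 5 Fezf2 KO arrays by their labels, with strain, age, tissue and gate in common. The labels do not say how Fezf2 was deleted, in which cells, or whether each array came from its own mouse. The p-values set the difference between the groups against the variation among arrays within a group, and that variation may be technical. Arrays keep the numbers in their titles, 1 to 5 for WT and 6 to 10 for KO, and values by array are given in that order. Xist, the RNA of the inactive X chromosome, was 21.1 to 30.0 on WT 2, KO 6 and KO 8 and 5304 to 6100 on the others, and a fit with this split as a block is cited where it ends a call. The Fezf2 signal was 5475 ± 350 on the WT arrays and 15.0 ± 2.77 on the KO arrays (mean ± SD, n = 5 per group, as for all such values below). The gate's own markers were present in both genotypes, with Epcam at 7344 ± 232 and 7695 ± 261 and Cd80 at 812 ± 139 and 717 ± 102, while Aire, which marks mature mTECs, went from 8791 ± 1156 to 6504 ± 1199 (log2 change -0.45, limma adjusted p = 0.0282). Other mature mTEC markers went the other way. Tnfrsf11a, Krt5, Cldn3 and Cldn4 rose by 0.76, 0.71, 0.65 and 0.53 in log2, each with a limma adjusted p under 0.05.

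Chaperones bind proteins that are not yet folded, or no longer folded, and keep them from clumping. HSP70 proteins work in cycles of ATP hydrolysis that J-proteins start and that BAG and HSP110 proteins reset by exchanging the nucleotide, while HSP90 acts late on clients such as kinases and steroid receptors. HSP60 and its lid HSP10 form a folding chamber in mitochondria, CCT forms one for actin and tubulin in the cytosol, and the small heat shock proteins hold unfolded proteins without using ATP. Many of these genes are switched on together by heat shock factor 1 at heat shock elements, and those of the endoplasmic reticulum (ER) by the unfolded protein response. Stress genes are also known to be induced while tissue is digested for sorting.

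Of the 91 genes, 78 had signal high enough to be tested, meaning above the 40th percentile of the array on at least 5 of the 10 arrays. The values are linear signal intensities per probe set. Each change below is KO minus WT on the scale of log2(signal + 16), with its standard error (SE) from the limma fit over all 14087 genes tested, and a gene was called where the adjusted p was under 0.05. Of the 78 chaperone genes tested 26 were called (33.3%), against 29.2% of all genes tested. They were 10 higher genes (12.8%, against 13.0% of all genes) and 16 lower ones (20.5%, against 16.2%), shares near the background, and 52 did not pass. The changes of those 52 lay between -0.19 and 0.22, with an SE of 0.045 to 0.200. The median log2 change of all 78 was -0.02, against -0.03 over all genes, and no called gene changed by as much as 2-fold on this scale at the probe set that stood for it. Dnajc22 did with the filter at the 60th percentile, which takes its other probe set (-1.28, adjusted p = 2.9e-07). The KO arrays lay entirely above the WT arrays for 8 of the 78 genes and entirely below them for 9, against 10.1% and 12.0% of all genes (22.1% in either direction). The same 8 and 9 genes were also called, against 9.63% of all genes called higher without overlap and 11.5% called lower. The number of lower genes depended on single arrays. It was 7 without KO 8, 8 without WT 2 and 10 without WT 4, while the number of higher genes ranged from 7 to 10 when each array was left out in turn. Of the 26 called genes, 13 kept their call in all 10 of those fits, 7 higher and 6 lower.

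**Figure D1:**
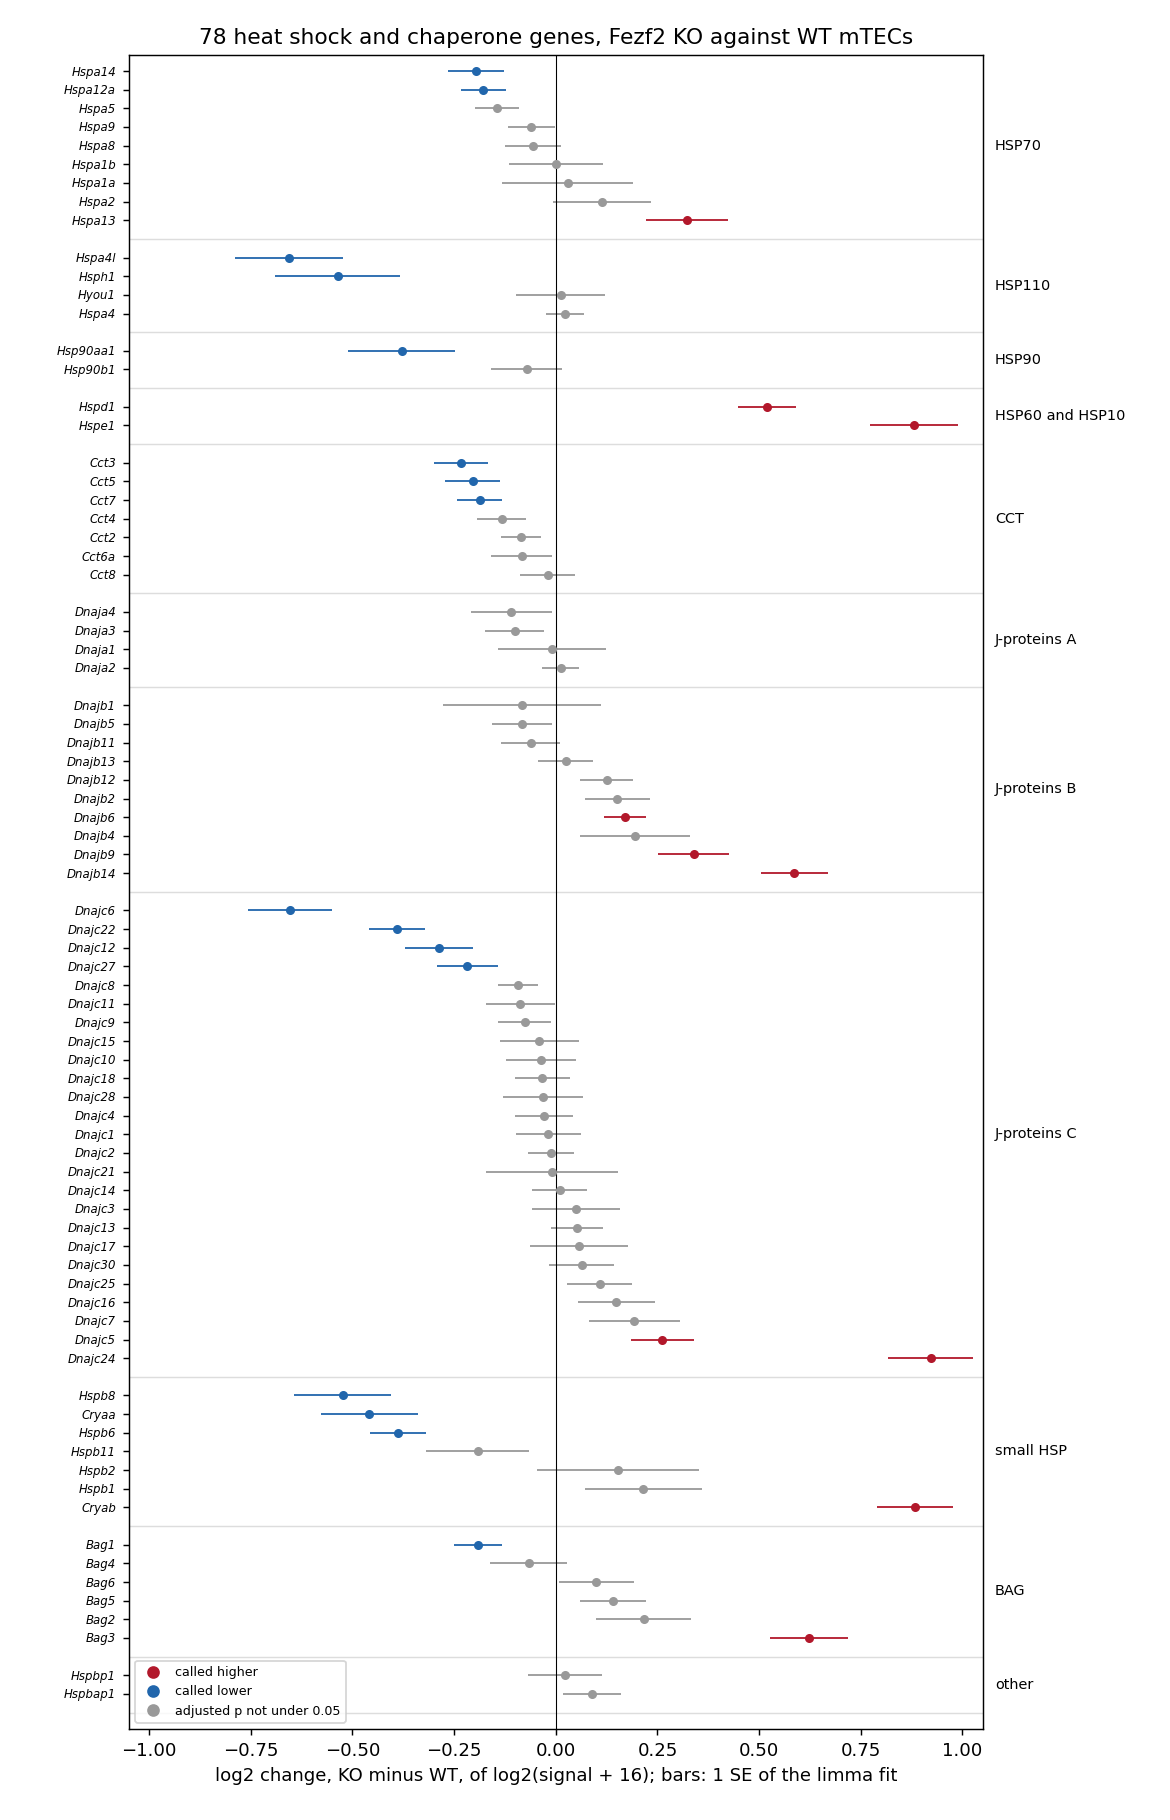
Log2 change, KO minus WT, of the 78 tested genes on the x axis, grouped by role on the y axis. Points are the fitted changes and bars 1 SE, in red for genes called higher, blue for genes called lower and grey for the rest. Hspd1, Hspe1, Bag3, Cryab, Dnajb14 and Dnajc24 stand to the right, at changes of 0.52 to 0.92, and Hspa4l and Dnajc6 farthest to the left, at -0.66 and -0.65.

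The promoters are shown first for Hspd1 and Hspe1, because this pair rose together and is transcribed from 1 shared region. Promoter sequences from RefSeq (build GRCm38.p6, 250 bases before to 50 after a start) were at hand for 74 of the 91 genes. Cryab, Hsp90aa1, Hspa8, Hspa9, Hyou1, Dnajc5 and Dnajc22 were among those without a sequence, so no element was searched for in them. The starts of Hspd1 and Hspe1 lie head to head on chromosome 1, with 215 bases between the start of Hspe1 and the nearer start of Hspd1, and RefSeq gives Hspd1 a further start 95 bases beyond the start of Hspe1. The 215 bases are printed on the strand of Hspe1, chr1:55087933-55088147, and capitals mark a heat shock element, here 4 units of TTC and GAA in turn with 2 bases between neighbours.
Hspd1 and Hspe1: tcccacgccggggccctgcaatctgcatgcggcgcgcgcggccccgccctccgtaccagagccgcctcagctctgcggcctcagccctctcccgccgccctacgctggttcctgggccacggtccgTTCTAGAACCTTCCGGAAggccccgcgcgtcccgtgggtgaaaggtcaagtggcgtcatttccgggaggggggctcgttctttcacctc
The element starts 89 bases before the start of Hspe1 and 144 before that of Hspd1. On either strand and beginning with either unit, 4 such units were found in the promoters of 8 of 27025 genes (0.0296%). Of the 74 chaperone genes only Hspd1 and Hspe1 had them, and these genes share the same site. The shorter form of 3 units (GAA, TTC, GAA with the same spacing, both strands), which the longer one contains, was found in 0.662% of all genes and in 4 of the 74, namely Hspd1, Hspe1, Dnajb6 and Hsph1. It is shown for Dnajb6, which was slightly higher (chr5:29735828-29735888, plus strand, 46 bases before the nearer of 2 listed starts), and for Hsph1, which was lower (chr5:149636280-149636308, minus strand, 15 bases after the nearer start).
Dnajb6: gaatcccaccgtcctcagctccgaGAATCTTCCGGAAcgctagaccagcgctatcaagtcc
Hsph1: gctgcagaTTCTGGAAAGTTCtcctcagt
The simplest pattern of 2 units (GAA then TTC or TTC then GAA, 2 bases apart, each its own reverse complement) was found in 17.0% of all genes and in 21 of the 74. Of the called genes with a promoter in the table, 4 of 7 higher and 5 of 13 lower ones had it, as did 9 of the 42 that did not pass. Hspd1 and Hspe1, with their shared site, count as separate genes among the higher ones. A match of letters describes the sequence and does not show that a factor binds there.

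The mitochondrial chamber genes rose. Hspd1, which encodes HSP60, had signals of 4097, 3711, 3618, 3705 and 3380 on WT 1 to WT 5 and of 4579, 5318, 5205, 5818 and 5707 on KO 6 to KO 10. Hspe1, which encodes the lid HSP10, had 4758, 4243, 3263, 3086 and 3224 in WT and 6995, 6674, 6474, 6891 and 6742 in KO cells. In both genes every KO array lay above every WT array, and WT 1 was the highest WT array. Hspd1 rose 1.44-fold in mean signal (log2 change 0.52, SE 0.07, adjusted p = 2.0e-04, limma) and Hspe1 1.82-fold (0.88, SE 0.11, adjusted p = 8.9e-05), and a weaker probe set of Hspe1 gave 0.95. Without WT 1 and KO 6 the change of Hspe1 was 0.96 (adjusted p = 1.9e-05). The other mitochondrial chaperones did not pass. Hspa9, the HSP70 of the mitochondrial matrix, was 857 ± 51.5 in WT and 821 ± 32.7 in KO cells (log2 change -0.06, SE 0.06), and Dnaja3, its J-protein, had a change of -0.10. Among 8 mitochondrial chaperones tested only Hspd1 and Hspe1 were called, against 29.2% of all genes tested. Against 13.0% higher and 16.2% lower among all genes, none of 14 other genes of mitochondrial protein quality control was higher and 2 were lower. They were Clpx, the unfoldase of the ClpXP protease, from 372 ± 21.6 to 300.0 ± 16.1, and Htra2, a protease of the intermembrane space, from 478 ± 36.8 to 367 ± 45.4.

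**Figure D2:**
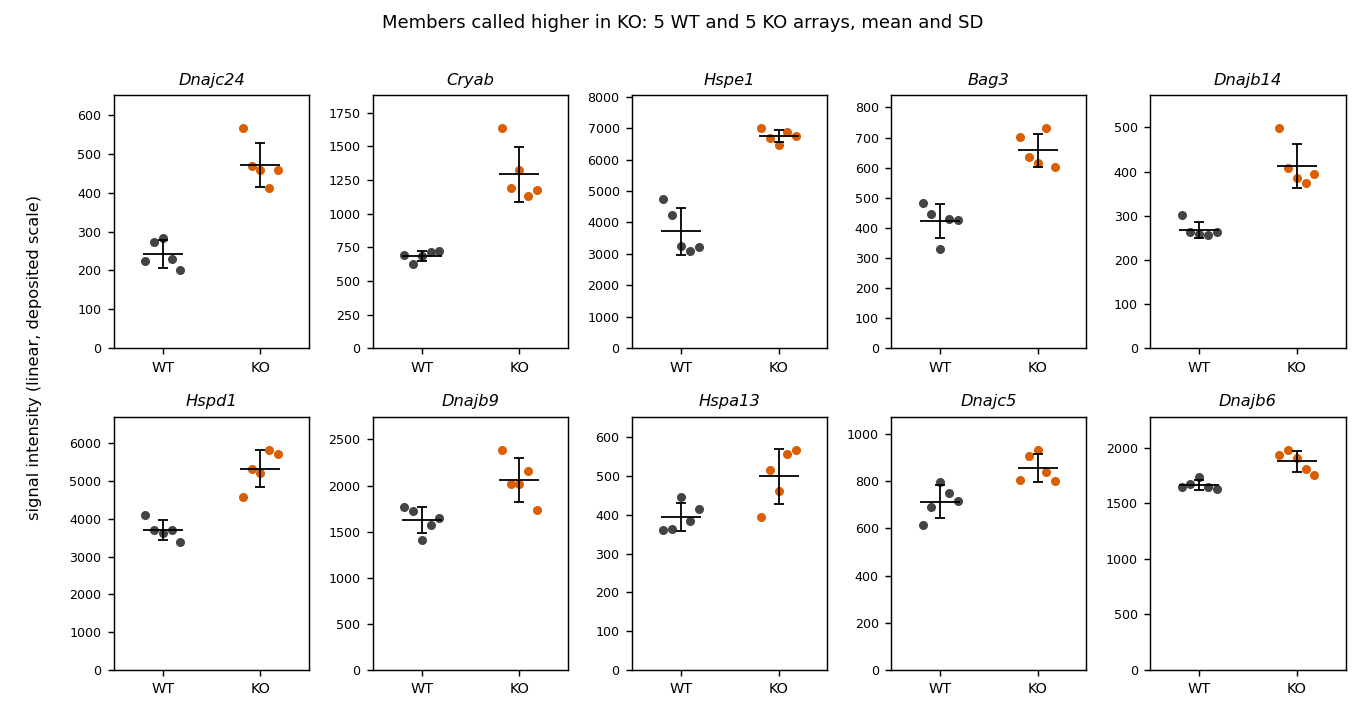
Linear signal (y axis, starting at 0) of the 10 genes called higher on each of 5 WT arrays (grey points) and 5 KO arrays (orange points), with the mean and SD in black. The groups are apart for 8 genes, while those of Hspa13 and Dnajb9 overlap.

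Among the HSP110 and HSP90 genes, Hspa4l, Hsph1 and Hsp90aa1 fell. HSP110 proteins are relatives of HSP70 that serve as its nucleotide exchange factors. Hspa4l had signals of 537, 310, 337, 387 and 363 in WT and 245, 217, 196, 266 and 259 in KO cells, so that every KO array lay below every WT array. It fell 1.63-fold (log2 change -0.66, SE 0.13, adjusted p = 0.0028), and its 5 probe sets gave -0.97 to -0.62. Hsph1 had 2545, 2317, 1550, 1762 and 1670 in WT and 1160, 1328, 1053, 1625 and 1562 in KO cells, with a narrow overlap of WT 3 with KO 9 and KO 10. It fell 1.46-fold (-0.54, SE 0.15, adjusted p = 0.0203). The highest WT values of Hsph1 were on WT 1 and WT 2. Leaving out WT 2 (adjusted p = 0.0524) ended the call of Hsph1, as did leaving out KO 8 (adjusted p = 0.0539) and leaving out WT 1 with KO 6 (-0.39, adjusted p = 0.0735). Hspa4, the third cytosolic member, was 1405 ± 36.0 in WT and 1427 ± 34.4 in KO cells (0.02, SE 0.05), and Hyou1, the HSP110 of the ER, had a change of 0.01 (SE 0.11).

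Hsp90aa1, the stress-inducible HSP90, had signals of 7446, 6707, 4579, 5871 and 5093 in WT and 5508, 4120, 3803, 4707 and 4512 in KO cells. The groups overlapped, and the log2 change of -0.38 (SE 0.13, adjusted p = 0.0474) was close to the threshold. Hsp90aa1 no longer passed without WT 1, WT 2, WT 4, KO 7, KO 8, KO 9 or KO 10, which is 7 of 10 such fits, with adjusted p from 0.0677 to 0.116. With the mean of its probe sets the change was -0.23 (adjusted p = 0.25), and the call was also lost with median centring, no filter or eBayes without trend or robust estimation (adjusted p from 0.0530 to 0.0630). Against 13.0% higher and 16.2% lower among all genes, none of 18 co-chaperones of HSP70 and HSP90 outside the rule was higher and 2 were lower. Chordc1, which binds HSP90, went from 1275 ± 173 to 946 ± 195 (log2 change -0.44) and Fkbp4, an immunophilin of steroid receptor complexes, from 450 ± 45.0 to 363 ± 54.6 (-0.31). The call of Chordc1 was lost without WT 1, WT 5, KO 7 or KO 8 (adjusted p from 0.0507 to 0.0684), and that of Fkbp4 in 8 of the 10 such fits, leaving it only without WT 5 or KO 10. Without WT 1 and KO 6 the change of Chordc1 was -0.24 (adjusted p = 0.0492) and the call of Fkbp4 was lost (adjusted p = 0.0809), as it was with Xist signal as a block (adjusted p = 0.0623).

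The subunits of the CCT chaperonin were all on the lower side, by small amounts. Of 7 subunits tested all had a negative change, from -0.23 to -0.02 with a median of -0.13. Of all 14087 genes tested 7754 had a negative change. Called lower were 3 of the 7 subunits, against 16.2% of all genes. The size of the change depended on the probe set. It was -0.235 to -0.061 over the 3 kept probe sets of Cct2 and -0.311 to -0.019 over the 5 of Cct4, and neither subunit was called. Cct3 had 2903, 3053, 2904, 2862 and 2753 in WT and 2175, 2575, 2266, 2636 and 2693 in KO cells. Cct7 went from 2832 ± 92.7 to 2487 ± 154 and Cct5 from 3408 ± 199 to 2962 ± 258. The WT and KO arrays of Cct3 and Cct7 did not overlap, and those of Cct5 did. The log2 changes were -0.23 (SE 0.07, adjusted p = 0.0205) for Cct3, -0.20 (SE 0.07, adjusted p = 0.0410) for Cct5 and -0.19 (SE 0.06, adjusted p = 0.0215) for Cct7. Tcp1, the subunit of the same ring that the symbol rule leaves out, fell from 3367 ± 217 to 2687 ± 291 (-0.33, SE 0.08, adjusted p = 0.0076). The call of Cct3 was lost without KO 8 (adjusted p = 0.0570) and without probe sets of the _s_at and _x_at kind, which can detect related transcripts (-0.18, adjusted p = 0.145), that of Cct7 without WT 4 or KO 8, and that of Cct5 in 7 of 10 fits that left out 1 array, those without WT 2, WT 3, WT 4, WT 5, KO 6, KO 7 or KO 8. Cct5 also missed the threshold with Xist signal as a block (adjusted p = 0.0560) and with eBayes without trend or robust estimation (adjusted p = 0.0560). KO 6 was the lowest array of the CCT genes, where their log2 signals averaged 11.15, while the other KO arrays lay at 11.27 to 11.43 and the WT arrays at 11.43 to 11.47. Prefoldin hands clients to CCT, and of 10 genes of Tcp1, prefoldin and their helpers only Pfdn5, from 1770 ± 121 to 2085 ± 172, was called besides Tcp1, against 29.2% of all genes. The call of Pfdn5 was lost without WT 4, WT 5 or KO 7 (adjusted p from 0.0527 to 0.0591).

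Of 9 HSP70 genes tested, 1 was higher, 2 were lower and 6 did not pass, against 13.0% higher and 16.2% lower among all genes. Hspa8, the constitutive HSP70 of the cytosol, was 13008 ± 1455 in WT and 12462 ± 526 in KO cells (log2 change -0.06, SE 0.07). Over its 4 kept probe sets the change of Hspa8 was -0.188 to -0.056. The heat-inducible pair Hspa1a and Hspa1b, whose coding sequences are nearly identical so that probes may not separate them, had changes of 0.03 (SE 0.16) and 0.001 (SE 0.12). Hspa1a had signals of 9347, 7235, 4691, 6034 and 5758 in WT and 7678, 5662, 5554, 7431 and 6799 in KO cells, and the WT group alone spanned all KO values. The 2 that were lower were Hspa14, a ribosome-associated HSP70, from 533 ± 45.1 to 462 ± 26.7 (log2 change -0.20, adjusted p = 0.0492), and Hspa12a, a distant relative, from 28.9 ± 2.51 to 23.7 ± 1.73 (-0.18, adjusted p = 0.0323). Both calls were fragile. That of Hspa14 was lost in 8 of 10 fits that left out 1 array, all but those without WT 5 or KO 9, and that of Hspa12a in 5, those without WT 2, WT 5, KO 6, KO 8 or KO 10, and without WT 1 and KO 6 together (adjusted p = 0.0566). Hspa12a, read from an _s_at probe set, was also lost without such probe sets (-0.14, adjusted p = 0.194), when probe sets were averaged (adjusted p = 0.0746), with array weights (adjusted p = 0.0593) and with Xist signal as a block (adjusted p = 0.0504). For Hspa14 the mean of probe sets gave -0.10 (adjusted p = 0.174), the Xist block gave an adjusted p of 0.0605, and the call was lost under 5 further settings (adjusted p from 0.0516 to 0.0761).

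Among the ER chaperones Hspa5, Hsp90b1 and Hyou1 did not pass, while Dnajb9 and Hspa13 rose. Hspa5, the ER HSP70 known as BiP, had signals of 10656, 10201, 11070, 10879 and 11229 in WT and 8692, 9621, 9835, 10506 and 10334 in KO cells. The change of -0.14 (SE 0.05, adjusted p = 0.0659) missed the threshold, and passed it without KO 9 (-0.17, adjusted p = 0.0466), with array weights (adjusted p = 0.0203) and when WT 1 and KO 6 were fitted as a block (adjusted p = 0.0271). Hsp90b1, the ER HSP90 known as GRP94, was 6530 ± 308 in WT and 6263 ± 893 in KO cells (-0.07, SE 0.09). The other probe set of Hsp90b1 went from 5194 ± 695 to 4361 ± 392 (-0.247). KO 6 was the lowest array for Hspa5, Hsp90b1 and Hyou1.

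Dnajb9, an ER J-protein that regulates the stress sensor Ire1, had 1766, 1722, 1409, 1572 and 1645 in WT and 2385, 2015, 2019, 2158 and 1733 in KO cells. Only KO 10 reached into the WT range. It rose 1.27-fold (log2 change 0.34, SE 0.09, adjusted p = 0.0113). Hspa13, a small HSP70 of microsomes, had 361, 363, 445, 383 and 416 in WT and 395, 516, 461, 557 and 567 in KO cells, and rose 1.27-fold (0.32, SE 0.10, adjusted p = 0.0297). KO 6 lay among the WT values of Hspa13, and its call was lost in 6 of 10 fits, those without WT 1, WT 2, WT 4, KO 7, KO 9 or KO 10 (adjusted p from 0.0594 to 0.0732). The mean of its 4 probe sets gave 0.18 (adjusted p = 0.0288). Of 9 chaperones of the ER lumen these 2 were higher and none was lower. Of 33 other genes of ER folding and the unfolded protein response 11 were higher and 2 lower, with a median of 0.08, against 13.0% and 16.2% of all genes. Ern1, the stress sensor Ire1 itself, rose from 216 ± 26.9 to 592 ± 67.5 (log2 change 1.39, SE 0.10, adjusted p = 1.5e-06), and Xbp1, the factor whose mRNA Ire1 splices, from 2698 ± 124 to 3687 ± 76.7 (0.45, SE 0.05, adjusted p = 2.7e-05). Averaged over probe sets the change of Ern1 was 0.62 (adjusted p = 3.9e-06). The probe sets do not tell spliced from unspliced Xbp1. Derl3, of the ER degradation channel, fell from 122 ± 5.47 to 71.5 ± 3.73 (-0.65, SE 0.06, adjusted p = 1.5e-05).

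The ER stress element was searched for because it is the known control site of ER chaperones. Its letters (CCAAT and CCACG with 9 bases between them, both strands) were found in the promoters of 0.137% of all genes and of 3 of the 74 chaperone genes, namely Hspa5, Hsp90b1 and Dnajc3, none of which was called. They are shown with these letters in capitals, for Hspa5 at chr2:34772005-34772063 (plus strand), Hsp90b1 at chr10:86705618-86705676 (minus strand) and Dnajc3 at chr14:118937807-118937865 (plus strand).
Hspa5: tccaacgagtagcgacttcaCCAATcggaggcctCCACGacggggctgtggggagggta
Hsp90b1: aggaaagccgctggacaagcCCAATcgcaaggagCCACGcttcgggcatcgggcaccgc
Dnajc3: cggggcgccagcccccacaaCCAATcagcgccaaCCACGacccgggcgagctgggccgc
The element starts 65 bases before the start in Hspa5, 212 in Hsp90b1, which has another 107 bases before its start, and 105 in Dnajc3. The letters were not in the window of Dnajb9, and Hspa13 and Hyou1 had no sequence in the table.

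The small heat shock proteins were split. Cryab, alpha-B crystallin, which is abundant in lens and muscle, had signals of 690, 627, 683, 716 and 722 in WT and 1635, 1193, 1322, 1131 and 1179 in KO cells. Every KO array lay well above the WT range, and KO 6 was the highest. Cryab rose 1.88-fold (log2 change 0.88, SE 0.09, adjusted p = 2.9e-05), and its other kept probe set gave 0.95. Hspb2, which neighbours Cryab on chromosome 9, was 139 ± 49.0 in WT and 153 ± 37.9 in KO cells (0.15, SE 0.20, adjusted p = 0.61); the difference between the neighbours was not tested. Cryaa, the partner of Cryab in the lens, went the other way, with 199, 217, 238, 221 and 244 in WT and 118, 181, 192, 177 and 135 in KO cells. The groups did not overlap, and the change of Cryaa was -0.46 (SE 0.12, adjusted p = 0.0127).

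Hspb8, which works with Bag3 in the disposal of misfolded proteins, fell from 486 ± 52.4 to 336 ± 70.2 (log2 change -0.52, SE 0.12, adjusted p = 0.0059). KO 6, at 460, lay among the WT values of 402 to 530, and the other KO arrays lay between 292 and 326. Hspb6, a small heat shock protein of muscle, fell from 49.9 ± 3.81 to 34.4 ± 3.76 (-0.39, SE 0.07, adjusted p = 0.0012). Hspb1, the main small heat shock protein of epithelia, was 6458 ± 1161 in WT and 7546 ± 1755 in KO cells (0.21, SE 0.14, adjusted p = 0.29). The SD of Hspb1 in KO cells rested on KO 6, at 10677 against 6611 to 6971 on the other KO arrays, and the gene passed when WT 1 and KO 6 were fitted as a block (adjusted p = 0.0226).

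Markers of tissues in which these genes are known were set beside them. Of 14 lens genes tested outside the rule 1 was higher and 1 lower, and of 21 muscle genes 2 were higher and 6 lower, with medians of -0.07 and -0.05. Among all genes tested 13.0% were higher and 16.2% lower, with a median of -0.025. The summed signal of the muscle list was 3751 to 4303 on the WT arrays and 3687 to 5365 on the KO arrays, the highest on KO 6, and that of the lens list 723 to 930 and 682 to 791. Of the muscle list Myod1 and Ryr1, and of the lens list Cryga, Crygb, Crygc, Crygd, Cryge and Lgsn, were not among the genes tested. The part of such cells in the changes of Cryab, Cryaa, Hspb6 and Hspb8 was not tested. In bulk samples, fewer cells of a type and less RNA per cell cannot be told apart.

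Among the BAG genes, Bag3 rose and Bag1 fell slightly. Bag3, a heat-inducible co-chaperone that steers clients to autophagy, had 483, 445, 331, 428 and 427 in WT and 701, 635, 616, 731 and 603 in KO cells, with no overlap. It rose 1.55-fold (log2 change 0.62, SE 0.10, adjusted p = 4.3e-04). Bag1, which links HSP70 to the proteasome, went from 1230 ± 69.0 to 1074 ± 55.1 (-0.19, SE 0.06, adjusted p = 0.0275), and its call was lost without WT 2, WT 4, KO 7, KO 8 or KO 9 (adjusted p from 0.0550 to 0.0695). Bag2, Bag4, Bag5 and Bag6 had changes from -0.07 to 0.22 and did not pass. Against 13.0% higher and 16.2% lower among all genes, 2 of 31 proteasome subunits were higher and none was lower. They were Psma7, from 1851 ± 141 to 2164 ± 85.6, and Psmb1, from 2768 ± 163 to 3129 ± 149, the latter call being lost in 7 of 10 fits that left out 1 array, all but those without WT 1, WT 2 or KO 10, and also when probe sets were averaged (adjusted p = 0.128).

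Among the J-proteins, Dnajc24, Dnajb14, Dnajb9, Dnajc5 and Dnajb6 rose and Dnajc6, Dnajc22, Dnajc12 and Dnajc27 fell. Dnajc24, which takes part in the synthesis of diphthamide, a modified histidine of elongation factor eEF2, had 223, 274, 284, 229 and 200 in WT and 566, 468, 457, 411 and 458 in KO cells. The groups were far apart, and Dnajc24 rose 1.95-fold (log2 change 0.92, SE 0.10, adjusted p = 4.7e-05), with 0.82 for its other probe set. Dnajb14, a J-protein of the ER membrane, had 301, 263, 259, 256 and 262 in WT and 498, 408, 385, 375 and 395 in KO cells. The groups did not overlap, and it rose 1.54-fold (0.59, SE 0.08, adjusted p = 2.2e-04). Its close relative Dnajb12 had a change of 0.13 (SE 0.07, adjusted p = 0.17).

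Dnajc5, the cysteine string protein of secretory vesicles, rose from 713 ± 69.6 to 856 ± 59.3 (log2 change 0.26, adjusted p = 0.0224), and Dnajb6, which keeps aggregation-prone proteins soluble, from 1664 ± 42.3 to 1876 ± 93.7 (0.17, adjusted p = 0.0261). The groups of both genes did not overlap. Of the 4 probe sets of Dnajb6, 1 weak one gave -0.12. The call of Dnajc5 was lost without KO 7 or KO 8, and that of Dnajb6 without WT 4, WT 5, KO 7 or KO 8 and without WT 1 and KO 6 together (adjusted p = 0.0510). With the mean of probe sets neither passed, Dnajc5 at 0.21 (adjusted p = 0.0667) and Dnajb6 at 0.12 (adjusted p = 0.0908).

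Dnajc6, auxilin, which uncoats clathrin vesicles mainly in neurons, had 1001, 1042, 1153, 1035 and 1031 in WT and 500.1, 715, 627, 748 and 758 in KO cells. The groups did not overlap, and it fell 1.57-fold (log2 change -0.65, SE 0.10, adjusted p = 5.4e-04). A weak probe set of Dnajc6 gave -0.22, and the mean of both -0.44 (adjusted p = 0.0038). Dnajc22 fell from 73.7 ± 5.71 to 52.4 ± 3.80 (-0.39, SE 0.07, adjusted p = 0.0012), and its second probe set, which had the higher signal in WT but not over all arrays, went from 85.9 ± 4.53 to 25.8 ± 3.07, 3.32-fold lower (-1.28). The mean of both probe sets of Dnajc22 gave -0.84 (adjusted p = 1.4e-06). Dnajc12, linked to the folding of aromatic amino acid hydroxylases, fell from 417 ± 45.6 to 338 ± 26.8 (-0.29, adjusted p = 0.0210), with its call lost without WT 2 or KO 10 and without WT 1 and KO 6 together (adjusted p = 0.0587). Dnajc27, a small GTPase with a J-domain, fell from 52.9 ± 5.95 to 43.2 ± 3.68 (-0.22, adjusted p = 0.0454), and lost its call in 7 of 10 fits, keeping it only without WT 1, WT 5 or KO 10. Dnajc27 was also lost with quantile normalization, median centring, no filter and Xist signal as a block (adjusted p from 0.0548 to 0.0572). By class, 3 of 10 Dnajb genes were higher and none lower, 2 of 25 Dnajc genes were higher and 4 lower, and none of 4 Dnaja genes was called, against 13.0% higher and 16.2% lower among all genes tested.

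**Figure D3:**
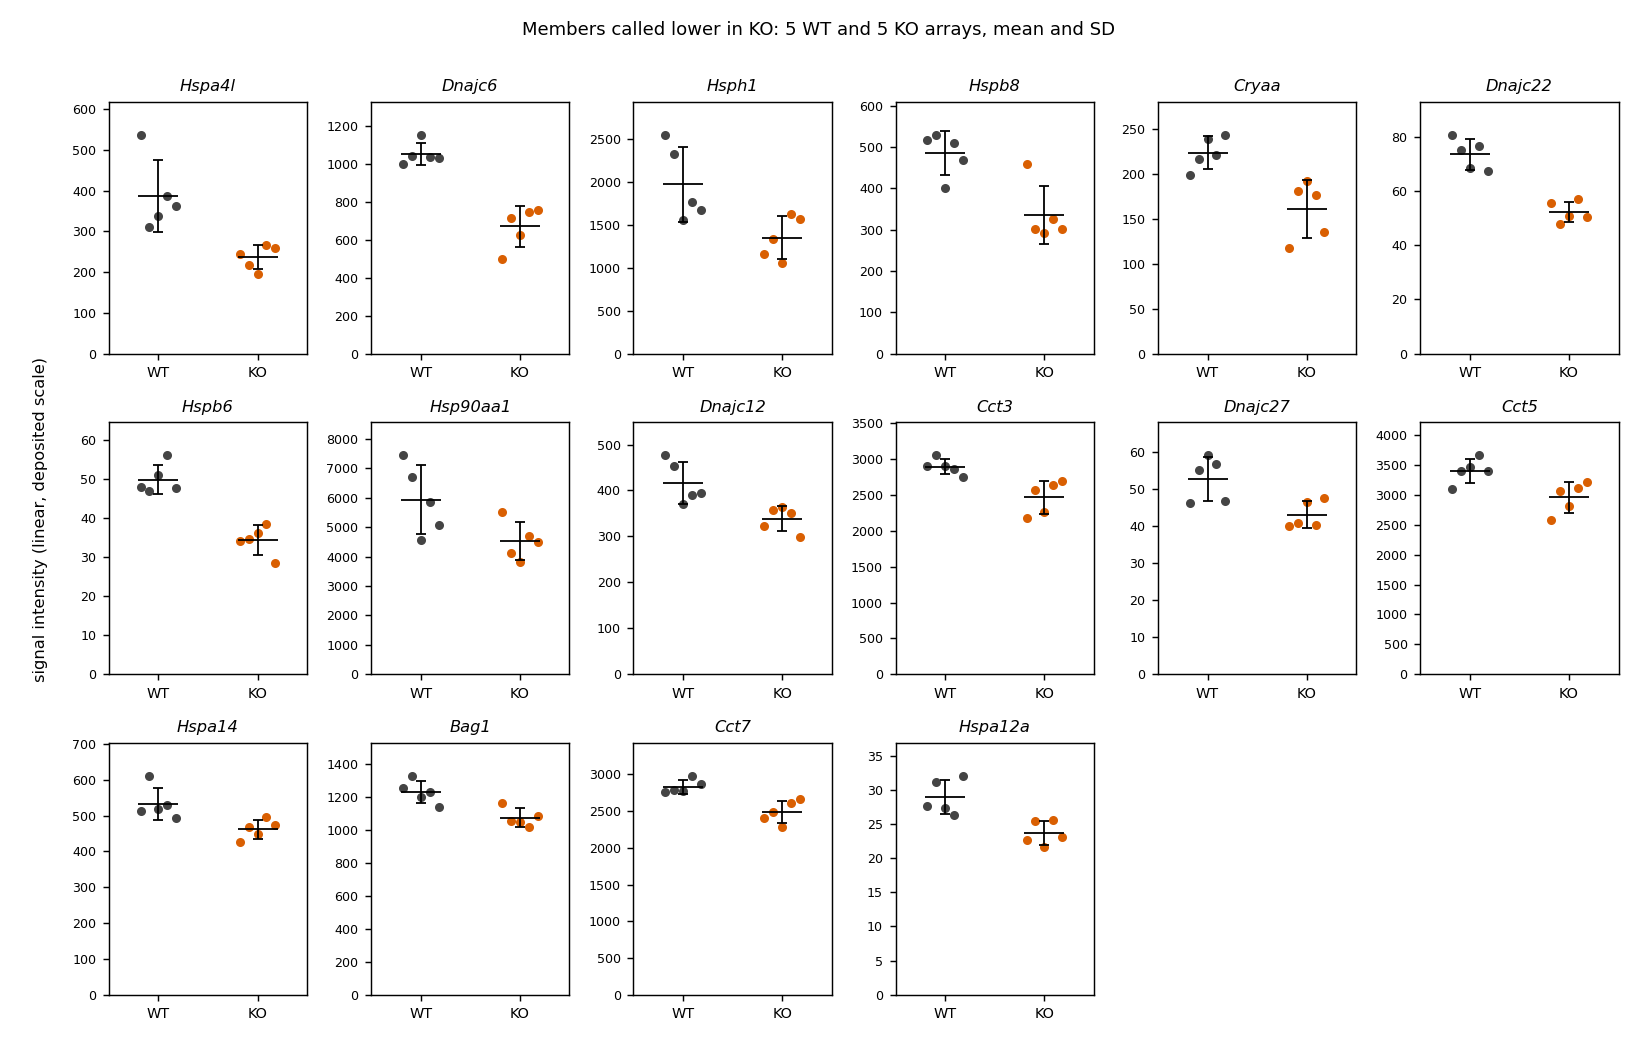
Linear signal (y axis, starting at 0) of the 16 genes called lower on each of 5 WT arrays (grey points) and 5 KO arrays (orange points), with the mean and SD in black. For Hspa4l, Dnajc6, Cryaa, Dnajc22, Hspb6, Dnajc12, Cct3, Cct7 and Hspa12a every KO point lies below every WT point, and for the other 7 genes the groups overlap.

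The heat-inducible genes also varied from array to array within a genotype. This set holds 14 genes chosen as heat-inducible, with the constitutive Hspa8 among them. Of them 4 were higher (Hspd1, Hspe1, Bag3, Cryab), 3 lower (Hsp90aa1, Hsph1, Hspa4l) and 7 not past the threshold. Among all genes tested 13.0% were higher and 16.2% lower. All 14 were above their own WT mean on WT 1, 11 were on WT 2 and 0 on WT 3. Dnajb1, the J-protein of stressed cells, had 4905, 4313, 2320, 3013 and 2902 in WT and 4309, 2928, 2572, 3401 and 2915 in KO cells, so that its WT arrays differed by more than its group means of 3491 ± 1075 and 3225 ± 674 (log2 change -0.08, SE 0.19). The mean log2 signal of the set was 11.65 on WT 1, 11.41 on WT 2 and 11.05 to 11.24 on the other WT arrays, and 11.60 on KO 6 against 11.29 to 11.50 on the other KO arrays. WT 1 and KO 6 were also the arrays with the highest poly-A spike-in signal, 537 and 759 against 115 to 422 on the others, and the highest 18S rRNA signal, 3445 and 3762 against 765 to 1774. Without these 2 arrays 10 members were higher and 13 lower, of which 9 and 12 were among those called with all arrays.

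**Figure D4:**
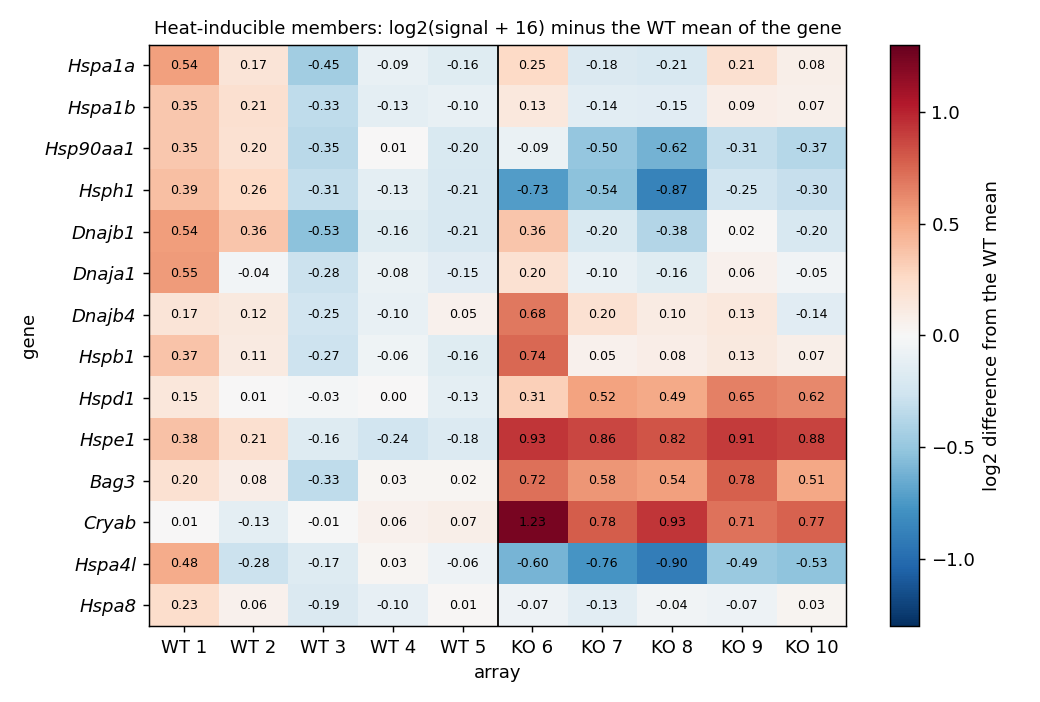
Log2 signal of the 14 heat-inducible genes (rows) on each array (columns), minus the mean of the gene over the 5 WT arrays, printed in each cell and coloured from blue (lower) to red (higher). WT 1 is above 0 in every row and WT 3 below 0, while Hspe1, Hspd1, Bag3 and Cryab are above 0, and Hsph1, Hspa4l and Hsp90aa1 below 0, on all 5 KO arrays.

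Genes of the immediate-early response, which also respond to tissue digestion, were set beside them. Of 24 tested 8 were higher and 2 lower, with a median log2 change of 0.20. Among all genes tested 13.0% were higher and 16.2% lower, with a median of -0.025. The 2 lower genes were Gadd45b and Gadd45g, both at -0.38 (limma adjusted p = 0.0114 and 0.0463). Nr4a1 rose from 590 ± 66.2 to 1154 ± 214 (log2 change 0.94, adjusted p = 1.2e-04), Fosb from 411 ± 106 to 666 ± 113 and Jun from 4561 ± 614 to 6053 ± 821. Without WT 1 and KO 6 the log2 change of Fosb was 0.46, against 0.70 with all arrays. The mean log2 signal of the 24 genes was 10.33 to 10.63 on the WT arrays, 11.10 on KO 6 and 10.44 to 10.68 on the other KO arrays. Of 8 endothelial markers 6 were higher, against 13.0% of all genes (summed signal 463 to 869 in WT and 791 to 1030 in KO). Emcn, 1 of the 6, averaged 17.3 in WT, under the 40th percentile of the arrays (21.5 to 22.1), and 34.0 in KO cells. Its KO arrays were thus enough for Emcn to be tested, and Pecam1, at 23.0 in WT and 43.1 in KO cells, lay near that percentile in WT. Of 9 myeloid markers 2 were higher and 5 lower (6373 to 6830 and 3973 to 5117), and of 11 thymocyte markers 1 was higher (1264 to 1586 and 875 to 1694). Of 8 fibroblast markers 2 were higher (2823 to 3438 and 3182 to 3703), and of 3 B cell markers 1 was higher and 1 lower (3171 to 3600 and 3325 to 4080). Of 16 mature mTEC markers 4 were higher (Tnfrsf11a, Krt5, Cldn3, Cldn4) and 4 lower (Fezf2, Aire, Ciita, Krt14). The part of the cells so marked in the changes of the chaperone genes was not tested.

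The 13 genes that were not tested had low signal. Cct6b, Cct8l1, Dnajb3, Dnajb7, Dnajb8, Dnajc5g, Hspa1l, Hspb3 and Hspb9 were at or below the 40th percentile on all 10 arrays, and several of them, such as Hspa1l and Dnajb3, are known from testis. Hspb3, a muscle gene, was 14.8 ± 2.41 in WT and 10.8 ± 0.952 in KO cells. Of 16 male germ cell markers 6 were tested, of which 3 were lower, and of 17 ciliated cell markers tested 4 were lower. Among all genes tested 16.2% were lower. Of the germ cell markers called lower, Ddx4 went from 25.0 ± 2.24 to 14.8 ± 1.70 and Acrv1 from 28.7 ± 4.86 to 21.7 ± 3.02. The 40th percentile was 21.5 to 22.1 on the arrays, so that Ddx4 was tested only through its WT arrays and Acrv1 fell to the limit. Hsf2, the only heat shock factor among the genes described, exceeded that percentile on 2 WT and 2 KO arrays, with means of 22.5 ± 2.62 and 20.4 ± 2.66. Of a further list of genes tied to the heat shock response, Hsbp1, Hikeshi, Serpinh1 and Sqstm1 were tested and none was called. Hsf4 and Hsf5, also on that list, were not among the genes tested.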

How the data were processed

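Each array measured total RNA labelled with biotin. The deposited values are signal intensity per probe set on a linear scale. The submitters' processing notes name MAS5 and no version; the sources used here do not give its background step or scaling target. The table held 45101 probe sets, of which 34958 had 1 gene symbol in the platform annotation, 932 several and 9211 none. Probe sets above the 40th percentile of their array on at least 5 arrays were kept, and the brightest of them on average stood for its gene, leaving 14087 genes. The log2(signal + 16) values, without further normalization, of all 10 arrays were fitted with limma 3.58.1 under R 4.3.3 (lmFit and trended, robust eBayes, no covariate), with Benjamini-Hochberg adjustment over all genes tested. Fold changes of mean signals are given beside log2 changes, which understate the change of dim genes. The procedure was tested on simulated data. Array medians lay between 36.5 and 38.0, and precision is limited by how many arrays there were. The highest correlation between a pair of arrays was 0.997, so no array was an exact copy of another. This does not show whether arrays shared a mouse or an RNA sample. The members, gene lists and alternatives were chosen with earlier results of these data known. Genes named by rule are the called members whose groups do not overlap, a fixed set of well-known chaperones, and up to 3 called genes of each pathway list; other members were named after their values were seen. Promoter windows were searched by exact letters.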

Additional observations from a re-analysis of the deposited data

Results flagged for a closer look

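Outlying arrays were looked for in 72 groups of 5 arrays, WT and KO apart, by the gap of the extreme array to its neighbour relative to the range of the 5 arrays. In all, 4 of the 72 groups stood out, a share near the 1 in 20 or so that chance alone gives. On KO 6, Hspb1 was 10677 and Hspb8 460, each far above the other KO arrays. On WT 1, Dnajb14 was 301, above the 256 to 263 of the other WT arrays, and on WT 3, Dnajc6 was 1153 against 1001 to 1042. Leaving out any 1 array did not end the calls of Hspb8, Dnajb14 or Dnajc6.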

How the results depend on the processing

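No paired analysis was possible because the array numbers of the 2 groups do not repeat. The counts of 10 higher and 16 lower genes stayed within 1.5 times under other offsets, normalization, filters, probe set choices, variance models, array weights and blocks. At an adjusted p under 0.01 they were 6 and 5. Leaving out each array in turn gave 7 to 10 higher and 7 to 14 lower genes. With an offset of 64 the changes of the dim genes Dnajc22, Dnajc27, Hspa12a and Hspb6 were -0.24, -0.12, -0.08 and -0.21, and with an offset of 1 that of Hspa12a was -0.28; all stayed called. Direction turned only in genes that were not called, all with small changes. Without probe sets whose suffix marks shared sequence Hyou1 was at -0.002. Without WT 1 and KO 6, Hsp90b1 was at 0.005, Hspa8 at 0.003 and Hspb2 at -0.055, and with array weights Hspb2 was at -0.004. With the Xist signal as a block Hspa1b was at -0.019. Leaving out 1 array gave -0.216 to 0.053 for Dnajb1, -0.103 to 0.001 for Hspa8, -0.038 to 0.098 for Hyou1, -0.084 to 0.164 for Hspa1a, -0.074 to 0.105 for Hspa1b and -0.130 to 0.004 for Hsp90b1. The cause was not tested.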
